A study of Mus musculus with 51 samples.

Results

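The genes described are those for tyrosine hydroxylase (Th), the dopamine transporter (Slc6a3), the vesicle protein Slc10a4 and the dopamine D2 receptor (Drd2), which together cover how a dopamine neuron makes, takes back and senses its transmitter. They were taken by name from a table of read counts, and are 4 of its 24564 genes. The study measured RNA by Smart-seq2, which reads whole transcripts from little RNA, in neurons sorted by FACS from the midbrain of adult mice, and compared neurons with and without a working Polycomb repressive complex 2 (PRC2). The 51 libraries fell into 8 groups by neuron type, labelled genotype and age.

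The midbrain dopaminergic (mDA) groups held 8 PRC2 mutants and 8 wt animals at 8 months, and 10 PRC2 mutants and 9 wt animals at 4 months, all of the strain DatCreEed. The serotonergic (5HT) groups held 4 PRC2 mutants and 4 wt animals at each age, all of the strain SertCreEed. Eed is a core subunit of PRC2. DatCre and SertCre name a Cre recombinase driven by the dopamine transporter gene and by the serotonin transporter gene Slc6a4. The sources used here do not give how the DatCre allele sits in Slc6a3, whether wt animals carry Cre, or which Eed exons are removed. The mDA libraries carried 3 sequencing set labels, set1, set2 and set3, and the 5HT libraries were all labelled set1. Whether a set label means the same batch at both ages and in both neuron types was not tested. In mDA at 4 months, set1 held 4 female mutants and 3 male wt animals, set2 held 2 of each sex in either genotype, and set3 held 2 male mutants and 2 female wt animals. At 8 months, mDA set1 held 3 female mutants and 1 male mutant against 1 female and 3 male wt animals. In the same group set2 held 1 female and 3 male mutants against 2 male wt animals, and the 2 animals of set3 were female wt.

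Tyrosine hydroxylase turns tyrosine into L-DOPA, the rate-limiting step of dopamine synthesis. The dopamine transporter returns released dopamine to the terminal, and it is the target of cocaine and methylphenidate. Slc10a4 is an orphan member of the bile acid transporter family that sits on synaptic vesicles of monoamine and cholinergic neurons. The D2 receptor on dopamine neurons acts as an autoreceptor that slows firing, synthesis and release, and PRC2 keeps genes silent by methylating lysine 27 of histone H3.

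In the GRCm38.p6 build, the annotated genes are Th on chromosome 7 (142892779 to 142899995, minus strand, 13 exons), Slc6a3 on chromosome 13 (73536128 to 73578672, plus strand, 15 exons), Slc10a4 on chromosome 5 (73006904 to 73012955, plus strand, 3 exons) and Drd2 on chromosome 9 (49340360 to 49408177, plus strand, 8 exons). The 250 bases before the start of each gene are shown to describe their sequence. They are RefSeq promoters of GRCm38.p6, 5′ to 3′ on the gene's strand, and span chr7:142899996-142900245 for Th, chr13:73536497-73536746 for Slc6a3, chr5:73006654-73006903 for Slc10a4 and chr9:49340153-49340402 for Drd2. For Slc6a3 and Drd2 the start used there is not the outermost base of the annotated gene. Capitals mark matches to GGGCGG, the GC box, on either strand (CCGCCC on the minus strand) and to TGACGTCA, the cyclic AMP response element (CRE).
Th: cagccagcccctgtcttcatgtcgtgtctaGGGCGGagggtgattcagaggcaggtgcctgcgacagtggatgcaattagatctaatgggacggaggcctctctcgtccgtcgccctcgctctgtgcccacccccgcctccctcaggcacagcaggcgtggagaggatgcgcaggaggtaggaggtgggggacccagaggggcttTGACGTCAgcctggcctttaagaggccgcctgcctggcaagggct
Slc6a3: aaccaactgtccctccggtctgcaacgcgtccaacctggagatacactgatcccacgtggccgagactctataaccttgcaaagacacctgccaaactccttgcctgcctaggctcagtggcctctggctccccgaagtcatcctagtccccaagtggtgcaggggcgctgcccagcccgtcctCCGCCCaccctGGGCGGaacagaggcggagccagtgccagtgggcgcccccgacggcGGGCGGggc
Slc10a4: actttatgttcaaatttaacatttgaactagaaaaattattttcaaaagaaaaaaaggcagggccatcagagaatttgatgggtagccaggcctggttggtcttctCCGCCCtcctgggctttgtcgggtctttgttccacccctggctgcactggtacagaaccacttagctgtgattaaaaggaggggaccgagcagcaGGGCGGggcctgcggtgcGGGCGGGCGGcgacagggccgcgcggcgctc
Drd2: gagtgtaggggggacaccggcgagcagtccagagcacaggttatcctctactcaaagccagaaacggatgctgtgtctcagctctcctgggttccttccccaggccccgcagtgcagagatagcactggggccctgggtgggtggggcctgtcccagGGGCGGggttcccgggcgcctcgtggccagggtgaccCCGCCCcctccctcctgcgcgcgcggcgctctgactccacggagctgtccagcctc
All 4 genes had a GC box between 250 bases before and 50 bases after the start, as did 35.67% of the 32841 mouse promoters of that length. Th was the member with a CRE, whose first base lay 45 bases before the start, and 1.79% of all promoters held that motif. Slc10a4 had 4 GC boxes, 2 of which overlap in the run GGGCGGGCGG, and an E-box (CAGCTG, in 16.3% of promoters) after the start. Of the other motifs searched on both strands, the NR4A site AAAGGTCA is found in 1.51% of all promoters and the AP-1 site TGAGTCA in 5.2%. The homeodomain core TAATTA is found in 5.29% and the bicoid-type homeodomain site TAATCC in 7.06% of them. For the forkhead site TGTTTAC the share is 3.65%, and for the TATA box TATAAA it is 13.62%. None of these 6 was in any of the 4 windows. The windows were rich in GC, at 64.3% in Th, 66.0% in Slc6a3, 57.3% in Slc10a4 and 70.3% in Drd2, where the median promoter had 52.7%. They held 15, 20, 18 and 23 CpG dinucleotides in the same order, against a median of 7. These matches describe letters in a window and are not evidence of binding, and their part in the levels below was not tested.

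Each library came from an animal of its own by its label. Total counts per library ran from 1644460 to 12250492, so that 3 counts, the floor used here, stood for 0.245 to 1.82 CPM. CPM is the count per 1000000 counts of the library after TMM scaling. Serotonergic markers (Tph2, Slc6a4, Fev, Gata3 and Htr1a) summed to 8.51 to 54.7 CPM in mDA libraries and to 1013 to 7150 CPM in 5HT libraries, so the libraries matched their labelled neuron type. Eed itself was not lower in libraries labelled mutant: the medians were 21.8 CPM in mDA mutants and 14.2 CPM in mDA wt at 8 months, 19.7 CPM in mutants and 15.2 CPM in wt at 4 months, and in 5HT 15.9 CPM in mutants and 13.3 CPM in wt at 8 months and 24.5 CPM in mutants and 9.54 CPM in wt at 4 months. Its log2 fold changes, 0.60, 0.74, 0.38 and 1.29 in that order, had adjusted p of 0.271, 0.114, 0.9996 and 0.554. A count over the whole gene also takes in exons outside a deletion, so this row does not check the labels, and "mutant" below means labelled mutant. In bulk libraries, fewer cells of a type and less RNA per cell cannot be told apart.

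In mDA neurons of 8-month-old mutants all 4 genes were lower than in wt. Th and Slc6a3 stood at 42.9% and 39.7% of their wt mean, and Slc10a4 and Drd2 at 64.3% and 67.3%. At 4 months none of the 4 passed the test. Of 15425 genes tested in these libraries, 666 changed at 8 months and 290 of them fell, or 1.88%, against which the 4 of 4 members that fell can be read. Their median log2 fold change was -0.93, and the median over all tested genes was 0.02.

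Th ranged from 600.6 to 890.9 CPM in the 8 mDA mutants at 8 months, with a median of 732.7, and from 929.7 to 2180 CPM in the 8 wt libraries, with a median of 1717. The groups did not overlap, and the highest mutant lay just under the lowest wt library. The means were 727 ± 106 CPM in mutants and 1694 ± 353 CPM in wt (SD, n = 8 each). The log2 fold change was -1.22 (SE 0.12, 95% interval -1.46 to -0.97), a 2.33-fold lower level, with an edgeR adjusted p of 2.17e-09. By p-value Th was number 16 of all genes tested.

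Slc6a3 ranged from 896.5 to 1561 CPM in the same mutants (median 1062) and from 1781 to 3245 CPM in wt (median 2933). Again no mutant reached the lowest wt library. The means were 1119 ± 219 CPM in mutants and 2821 ± 485 CPM in wt (SD, n = 8 each). The transporter gene had the largest fall of the 4, with a log2 fold change of -1.40 (SE 0.14, 95% interval -1.67 to -1.13), 2.64-fold lower, an adjusted p of 8.50e-10 and rank 11 of all genes.

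Slc10a4 ranged from 303 to 457 CPM in mutants (median 403) and from 325 to 866 CPM in wt (median 631) at 8 months. All 8 mutants lay under the wt median, but only 1 lay under the lowest wt library, so the groups overlapped. The log2 fold change was -0.64 (SE 0.15), 1.55-fold lower, with an adjusted p of 0.00526. With no term for sequencing set it was -0.60 and did not pass (adjusted p = 0.0517). The means were 396 ± 51.4 CPM in mutants and 615 ± 163 CPM in wt (SD, n = 8 each).

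Drd2, the autoreceptor gene, ranged from 46.8 to 69.3 CPM in mutants (median 51.3) and from 47.3 to 109.1 CPM in wt (median 72.3). All 8 mutants were again under the wt median, and 2 were under the lowest wt library. The log2 fold change was -0.61 (SE 0.16), 1.52-fold lower, with an adjusted p of 0.0187. The means were 53.1 ± 7.45 CPM in mutants and 78.8 ± 20.4 CPM in wt (SD, n = 8 each).

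The sequencing sets gave the same direction for each gene at 8 months. In set1, the 4 mutants had Th at 601, 611, 649 and 854 CPM, and the 4 wt animals at 1657, 1740, 1769 and 1902 CPM. In set2, the 4 mutants had Th at 722, 744, 745 and 891 CPM, and the 2 wt animals at 1683 and 1694 CPM. Neither set overlapped between genotypes. Slc6a3 averaged 1013 CPM in set1 mutants and 2877 CPM in set1 wt, and 1224 CPM in set2 mutants and 3017 CPM in set2 wt. Fitted within set1 and within set2, Th fell by 1.33 and 1.11 on the log2 scale (adjusted p = 1.64e-07 and 0.00568), and Slc6a3 by 1.51 and 1.28 (adjusted p = 1.19e-08 and 0.0152). Slc10a4 also passed within each set, at -0.57 (adjusted p = 0.0357) and -0.95 (adjusted p = 0.0213). Drd2 did not, at -0.54 (adjusted p = 0.141) in set1 and -0.82 (adjusted p = 0.277) in set2.

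Some 8-month libraries stood apart from the rest. The wt library C250, from 1 of the 2 set3 animals and the least deep library of all, had the lowest wt value of each of the 4 genes. Endothelial and mural markers (Cldn5, Pecam1, Flt1, Ly6c1, Pdgfrb and Rgs5) summed to 619, 269.3 and 614 CPM in the set2 mutants D161, D170 and D176, to 6.77 to 13.3 CPM in the other mutants, and to 3.02 to 27.2 CPM in wt. With these 4 libraries left out, a setting chosen after the data were seen, Th stayed at -1.24 (adjusted p = 3.83e-09) and Slc6a3 at -1.45 (adjusted p = 3.90e-09). Slc10a4 was then at -0.50 (adjusted p = 0.0517) and Drd2 at -0.55 (adjusted p = 0.0659), so the calls of these 2 genes ended there. For Drd2 the call also ended when any 1 of the wt libraries C45, D107 and D147 was left out (log2 fold changes -0.56, -0.55 and -0.58, adjusted p 0.0512 to 0.0615).

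GABA neuron markers moved with these falls. All 3 (Gad1, Gad2 and Slc32a1) rose in 8-month mutants, with log2 fold changes of 2.76, 0.72 and 1.88, and their summed level was 388 to 637 CPM in mutants and 109 to 269.2 CPM in wt, with none of the 3 at 0 in any of these libraries. Of the other lists, 1 of 5 serotonergic markers (Fev), 2 of 8 astrocyte markers (Agt and Slc1a2) and 1 of 6 endothelial and mural markers (Cldn5) rose, and no oligodendrocyte or microglia marker was called. Of all 15425 genes tested, 2.44% rose in this comparison. The summed astrocyte markers were at 305.9 to 1263 CPM in mutants and 253.6 to 422.6 CPM in wt, and the oligodendrocyte markers at 452.1 to 1330 CPM in mutants and 490.1 to 925.4 CPM in wt, with overlap in both. The highest astrocyte sums, 713.0, 676.0 and 1263 CPM, were those of D161, D170 and D176, and the other mutants were at 305.9 to 424.6 CPM. Whether the calls of Agt, Slc1a2 and Cldn5 depend on those libraries was not tested. Serotonergic markers summed to 15.2 to 54.7 CPM in all 8-month mutants and 8.51 to 51.6 CPM in wt. The part of these markers in the lower dopamine genes was not tested.

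**Figure D1:**
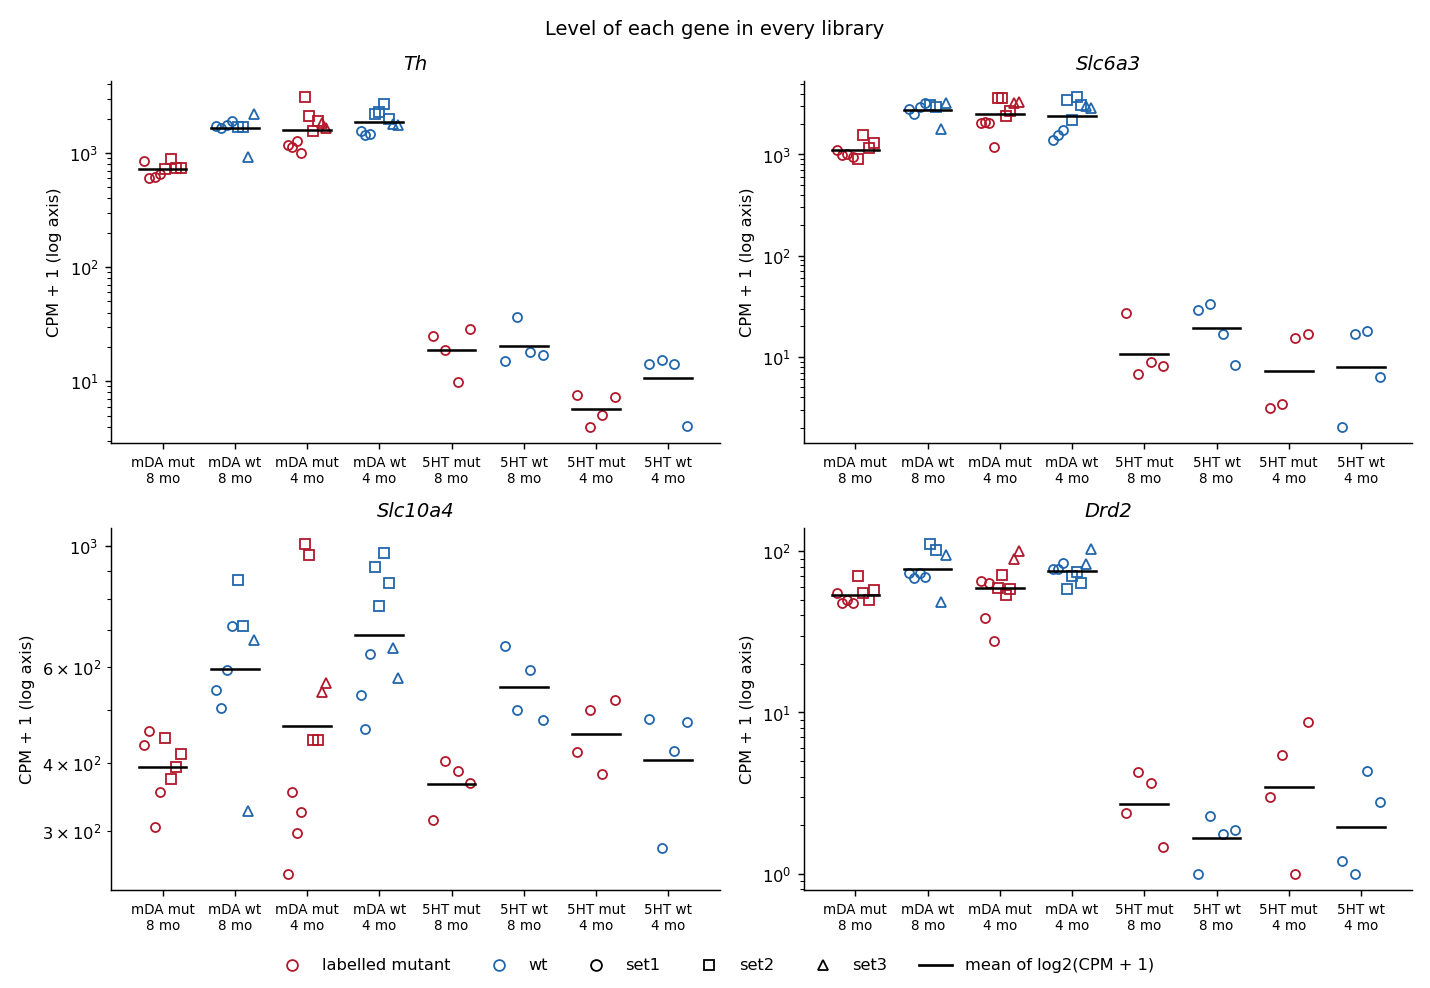
Level of Th, Slc6a3, Slc10a4 and Drd2 in each of the 51 libraries, as CPM + 1 on a log axis, by group; symbols give the sequencing set and the black line is the mean of log2(CPM + 1). The 8 mDA mutants at 8 months lie between 600.6 and 890.9 CPM for Th and between 896.5 and 1561 CPM for Slc6a3, under every 8-month wt library, while Slc10a4 is at a similar level in mDA and 5HT libraries.

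At 4 months Th ranged from 1006 to 3072 CPM in the 10 mDA mutants (median 1609) and from 1449 to 2687 CPM in the 9 wt libraries (median 1814). Slc6a3 ranged from 1189 to 3645 CPM in mutants (median 2533) and from 1384 to 3652 CPM in wt (median 2870). Over all sets both genes overlapped over most of their range, though Th did not overlap within set1. The log2 fold changes were -0.12 for Th (95% interval -0.32 to 0.08, adjusted p = 0.648) and 0.16 for Slc6a3 (-0.06 to 0.38, adjusted p = 0.555), so that falls of the 8-month size lie outside both intervals. In this comparison 1.17% of genes were called, 89 higher and 92 lower, and 0 of the 4 members. With RLE scaling 96 genes were higher and 56 lower, and with scaling to pan-neuronal genes 84 and 31.

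Slc10a4 and Drd2 leaned lower at 4 months without passing the test. Slc10a4 ranged from 249 to 1005 CPM in mutants (median 440) and from 461 to 968 CPM in wt (median 649). The log2 fold change was -0.40 (SE 0.12, 95% interval -0.64 to -0.17, adjusted p = 0.0866), and 8 of 10 mutants were under the wt median. The 2 mutants over it were C213 and C214 of set2, at 1005 and 960 CPM. Only the labels of these 2 libraries carry the suffix b, which the labels do not explain. Without C213 the fold change was -0.47 (adjusted p = 0.0232) and without C214 -0.46 (adjusted p = 0.0360), and within set1 alone it was -0.70 (adjusted p = 0.00493). In set1 the 4 mutants had Slc10a4 at 249, 296.3, 324 and 352 CPM and the 3 wt animals at 461, 532 and 633 CPM. These did not overlap, but in set1 every mutant was female and every wt animal male. Th did not overlap there either, at 1006 to 1276 CPM in mutants and 1449 to 1567 CPM in wt. Nor did Drd2, at 26.6 to 64.3 CPM in mutants and 76.5 to 82.9 CPM in wt, while Slc6a3 overlapped. The same set1 libraries did not overlap in several marker sums. Pan-neuronal genes summed to 2446 to 2973 CPM in mutants and 3784 to 4205 CPM in wt, oligodendrocyte markers to 507.1 to 917.5 CPM in mutants and 1153 to 1509 CPM in wt, and GABA neuron markers to 111.1 to 160.1 CPM in mutants and 218.4 to 256.6 CPM in wt. Astrocyte and microglia markers were also lower in these mutants without overlap, at 191.2 to 295.5 and 7.33 to 20.3 CPM in mutants and 307.6 to 332.3 and 30.9 to 57.3 CPM in wt. Dopaminergic markers other than the members were lower too, at 1863 to 2329 CPM in mutants and 2393 to 2585 CPM in wt. Dopaminergic transcription factors went the other way without overlap, at 641.2 to 782.5 CPM in mutants and 446.1 to 520.8 CPM in wt. The part of these marker differences in those of Slc10a4, Th and Drd2 was not tested. Fitted over all sets at 4 months, the GABA neuron markers did not move as 1: Gad1 rose by 0.79 (edgeR adjusted p = 0.0178). Gad2 and Slc32a1 were at -0.41 and -0.06 (edgeR adjusted p = 0.175 and 0.920), and 0.577% of all genes rose. Drd2 ranged from 26.6 to 99.5 CPM in mutants (median 60.4) and from 57.4 to 102.8 CPM in wt (median 76.5), with a log2 fold change of -0.25 (95% interval -0.51 to 0.02, adjusted p = 0.396).

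At 4 months the levels also differed between sequencing sets. Slc6a3 averaged 1834, 3076 and 3267 CPM in mutants of set1, set2 and set3, and 1549, 3104 and 2951 CPM in wt of the same sets. Th averaged 1153, 2163 and 1755 CPM in those mutants and 1494, 2295 and 1788 CPM in those wt animals. Set1 was thus lowest for both genes in either genotype at this age, and at 8 months wt set1 was not, with Th at 1767 CPM and Slc6a3 at 2877 CPM. Drd2 had another order, with 47.9, 59.4 and 93.9 CPM in mutants and 78.7, 65.5 and 92.3 CPM in wt, and within set3 alone its fold change was 0.02.

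The genotype effect of Th and Slc6a3 differed between the ages. The difference of the log2 fold changes, 8 minus 4 months, was -1.10 for Th (SE 0.16, adjusted p = 2.31e-05) and -1.56 for Slc6a3 (SE 0.18, adjusted p = 1.37e-07), number 4 of all genes by p-value. For Slc10a4 it was -0.23 (95% interval -0.60 to 0.14, adjusted p = 0.519) and for Drd2 -0.36 (-0.76 to 0.05, adjusted p = 0.333), which does not show that their effects were equal at the 2 ages. Of all genes 2.35% had a negative difference that passed, against 2 of the 4 members. These were 362 negative and 580 positive differences, or 567 and 268 with scaling to pan-neuronal genes.

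Among mutants, 8-month animals had less Th and Slc6a3 than 4-month animals. The log2 fold changes, 8 over 4 months, were -1.22 for Th (SE 0.13, adjusted p = 1.49e-08), -1.20 for Slc6a3 (SE 0.15, adjusted p = 1.85e-07), -0.34 for Slc10a4 (adjusted p = 0.171) and -0.17 for Drd2 (adjusted p = 0.539), and 2.64% of genes fell in this comparison. That is 407 lower genes beside 730 higher ones, or 928 and 337 with scaling to pan-neuronal genes, where the median of all genes was at -0.18 and Slc10a4 passed at -0.55 (adjusted p = 0.00757). Among wt animals they were -0.07, 0.29, -0.10 and 0.07 for the same genes in the same order, with adjusted p of 0.926, 0.647, 0.900 and 0.937. EdgeR called 0 of 15425 genes (0%) between the wt ages, where 1204 had an unadjusted p under 0.05 and DESeq2 called 18. The genotype comparison at 8 months uses the same 8-month mutants, so these falls and that one are not separate evidence. The fit between ages treats each set label as the same batch at both ages, which was not tested. If batches differed between the ages, age and batch could not be told apart in these comparisons.

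**Figure D2:**
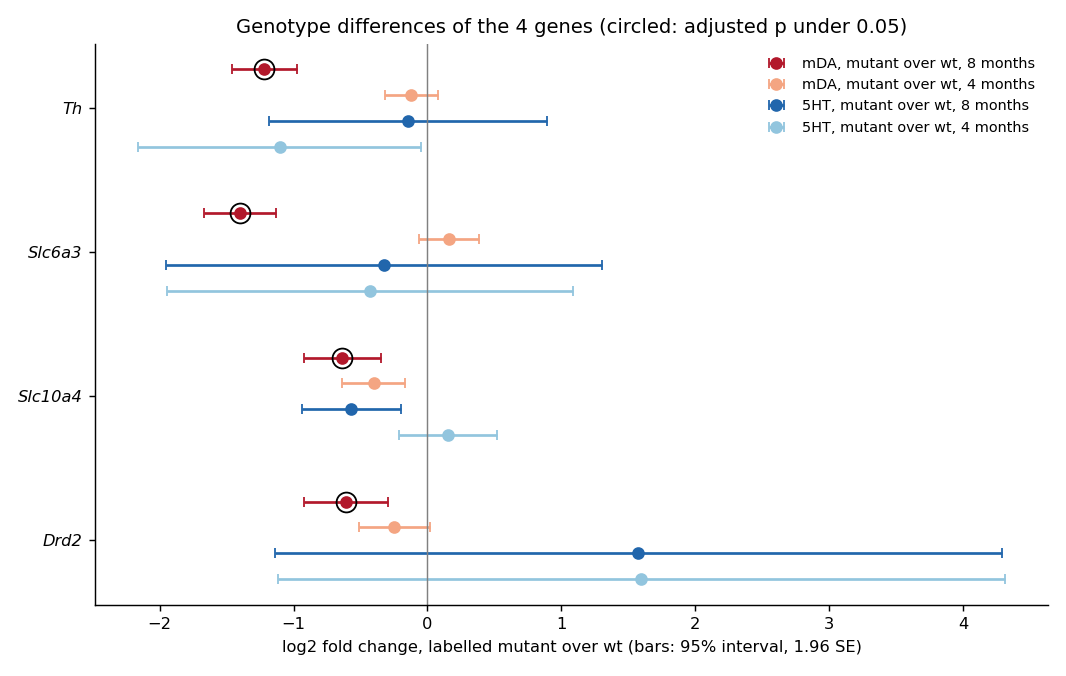
Log2 fold change of each gene, mutant over wt, in mDA and 5HT neurons at 8 and 4 months, with 95% intervals; circles mark an adjusted p under 0.05. All 4 circled values are mDA at 8 months, from -1.40 for Slc6a3 to -0.61 for Drd2, and the 5HT intervals of Th, Slc6a3 and Drd2 are wide.

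Ratios of the genes' counts within a library do not depend on how libraries are scaled, and they show unequal falls. At 8 months the library ratio of Slc6a3 to Drd2 averaged 20.9 in mutants (12.9 to 29.0) and 36.3 in wt (28.4 to 47.6), as geometric means. The log2 difference was -0.80 (exact permutation test, 2-sided, adjusted p = 0.00249 over the 12 ratios tested). Th to Drd2 averaged 13.7 in mutants and 21.6 in wt (difference -0.66, exact permutation test, adjusted p = 0.00249). Slc6a3 to Slc10a4 averaged 2.81 in mutants and 4.68 in wt (difference -0.74, exact permutation test, adjusted p = 0.00249), and Th to Slc10a4 1.83 in mutants and 2.79 in wt (difference -0.60, exact permutation test, adjusted p = 0.00326). Thus Th and Slc6a3 were each lower in mutants relative to Slc10a4 and to Drd2, although every one of these ratios overlapped between the groups. These permutation tests had no term for set or sex, which were unevenly split over the groups. In wt the ratio of Slc6a3 to Drd2 averaged 40.9 in set1 and 28.8 in set2.

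The remaining ratios did not differ beyond their spread. Th to Slc6a3 averaged 0.654 in mutants and 0.596 in wt at 8 months (difference 0.13, exact permutation test, adjusted p = 0.162), and Slc10a4 to Drd2 7.45 in mutants and 7.77 in wt (difference -0.06, exact permutation test, adjusted p = 0.583). In set1 the 4 ratios that passed did not overlap, with differences of -0.78 (Th to Slc10a4), -0.88 (Th to Drd2), -0.89 (Slc6a3 to Slc10a4) and -0.99 (Slc6a3 to Drd2) and an exact permutation p of 0.0286 each, the smallest that 4 against 4 can give (adjusted p = 0.0857). In set2, with 4 mutants and 2 wt animals, the differences were smaller: -0.44 for Slc6a3 to Drd2, -0.24 for Th to Drd2, -0.37 for Slc6a3 to Slc10a4 and -0.17 for Th to Slc10a4 (exact permutation test, adjusted p = 0.600 each). An exact test of 4 against 2 cannot give a p under 0.133, so no ratio could pass in set2. In set1 none could either, since adjustment over the 12 ratios leaves even the smallest exact p of 0.0286 above the threshold.

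At 4 months the ratios to Slc10a4 ran the other way. Slc6a3 to Slc10a4 averaged 5.35 in mutants (3.63 to 8.14) and 3.52 in wt (2.60 to 5.03), a log2 difference of 0.61 (exact permutation test, adjusted p = 0.00878). Th to Slc10a4 averaged 3.42 in mutants and 2.74 in wt, a difference of 0.32 (exact permutation test, adjusted p = 0.0323). Both groups overlapped in either ratio. Within set1 these differences were 1.04 and 0.45, and within set2 0.40 and 0.29, none of which passed alone (exact permutation test, adjusted p from 0.0980 to 0.600). In set1, 4 against 3 cannot give an exact p under 0.0571, so no ratio could pass there. In set2, 4 against 4 cannot give an exact p under 0.0286, which adjustment over the 12 ratios leaves above the threshold. The remaining 4 ratios at 4 months had adjusted p from 0.0983 to 0.583 by the same exact permutation test. The tests over all sets had no term for set or sex, and in set1 and set3 sex went with genotype at this age.

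**Figure D3:**
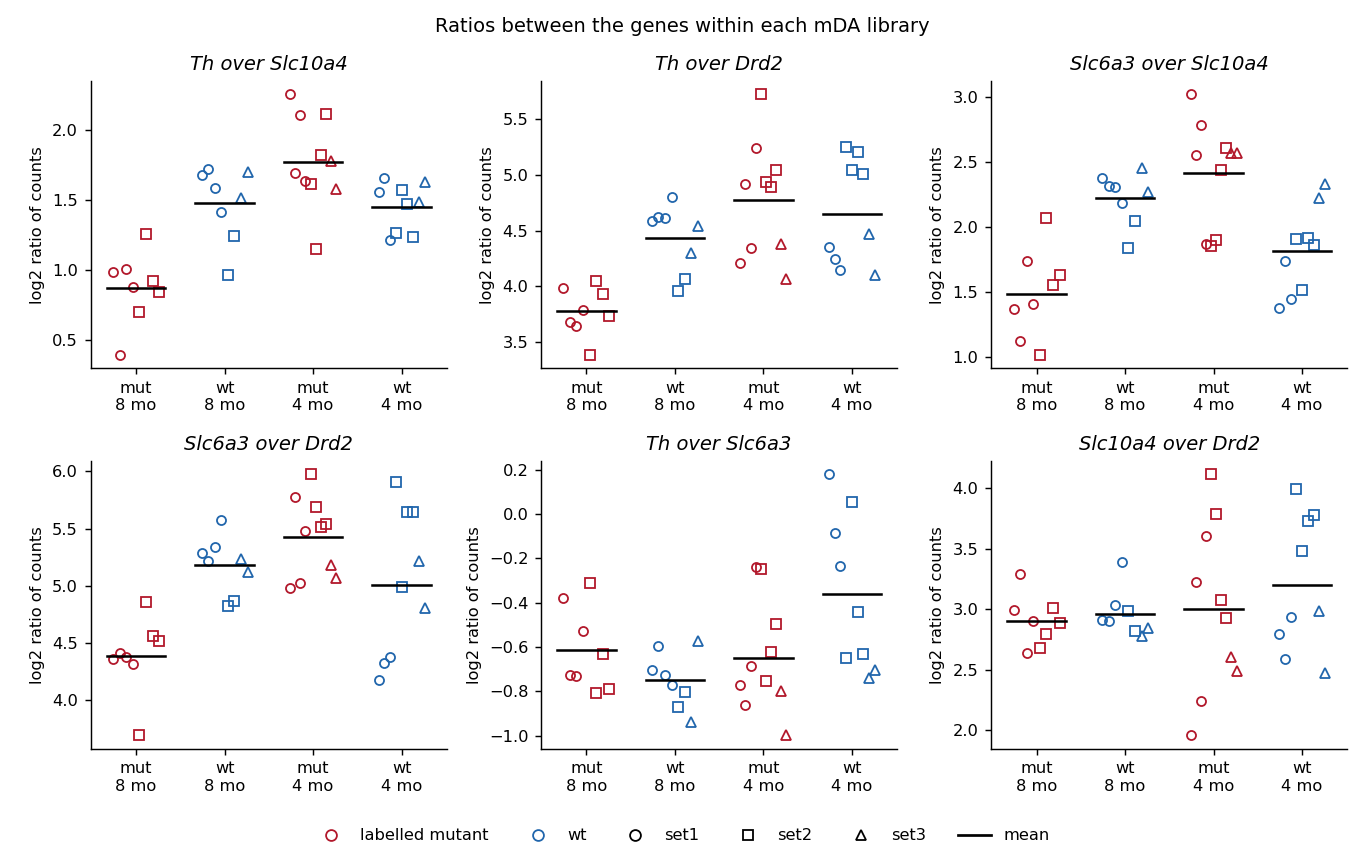
Log2 ratio of the counts of 2 genes in each mDA library, by genotype and age, with the group mean as a line and symbols for the sequencing set. The 4 ratios of Th or Slc6a3 to Slc10a4 or Drd2 are lower in 8-month mutants than in 8-month wt, by 0.60 to 0.80, while Th over Slc6a3 and Slc10a4 over Drd2 differ by 0.13 and -0.06.

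Other genes of dopamine handling were mixed at 8 months. Of 13 further synthesis, storage and breakdown genes 12 were tested, and 2 fell and none rose, with a median of 0.18. Among all genes tested 1.88% fell and 2.44% rose. Slc18a2, the vesicular monoamine transporter that loads dopamine into vesicles, fell by 1.49 on the log2 scale (adjusted p = 8.64e-15). It averaged 742 ± 67.6 CPM in mutants and 2136 ± 384 CPM in wt (SD, n = 8 each). Aldh1a1, an aldehyde dehydrogenase that clears the dopamine aldehyde in a subset of these neurons, fell by 1.04 (adjusted p = 0.0173). Ddc, which turns L-DOPA into dopamine, was at -0.37 (adjusted p = 0.109) and Gch1, which starts the synthesis of the tyrosine hydroxylase cofactor, at -0.82 (adjusted p = 0.0552). Of the 4 other dopamine receptors only Drd1 and Drd5 were tested, and neither was called (-0.81, adjusted p = 0.676, and 2.17, adjusted p = 0.270).

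Of 13 transcription factors of dopamine neurons, 4 fell and 1 rose in 8-month mutants, with a median of -0.61, beside 1.88% and 2.44% of all genes. En1, an engrailed factor needed for the survival of these neurons, was at -1.54 (adjusted p = 2.17e-09), Pitx3 at -1.56 (adjusted p = 0.00371), Ebf3 at -0.92 (adjusted p = 0.00130) and Nr4a2 at -0.53 (adjusted p = 0.0271). Pitx3 and Nr4a2 (Nurr1) are activators of Th and Slc6a3 in midbrain dopamine neurons. Nr4a1, an immediate early relative of Nr4a2, rose by 1.31 (adjusted p = 0.00488). At 4 months 0 of the 12 synthesis, storage and breakdown genes and 1 of the 13 factors, Nr4a1 at 1.09 (adjusted p = 0.0167), passed, beside 1.17% of all genes.

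**Figure D4:**
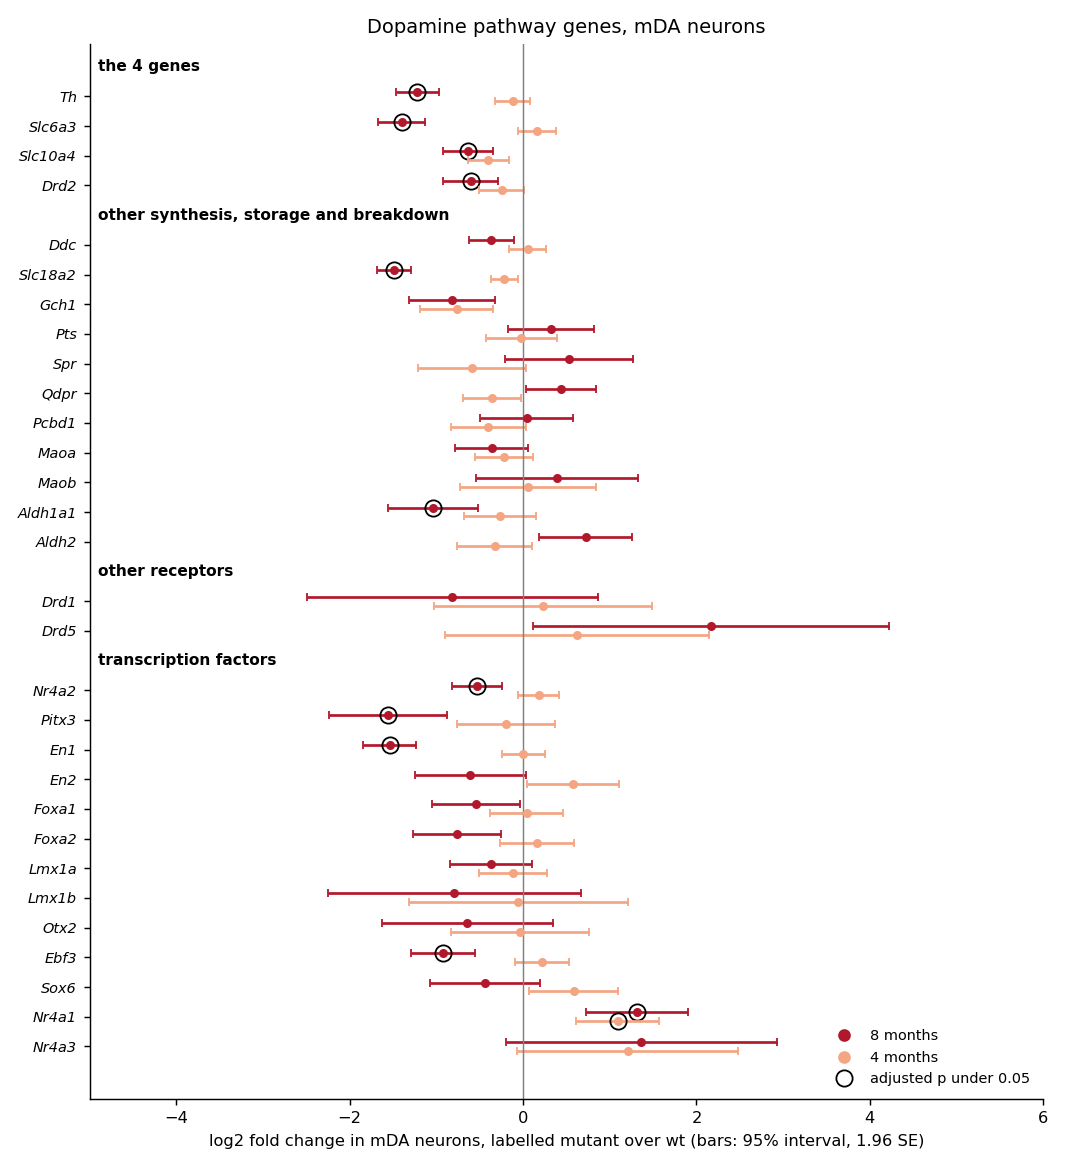
Log2 fold change, mutant over wt, of the 4 genes and of the other tested genes reported here of dopamine synthesis, storage, breakdown, reception and transcription in mDA neurons at 8 months (dark) and 4 months (light), with 95% intervals; circles mark an adjusted p under 0.05. At 8 months Slc18a2 at -1.49, En1 at -1.54 and Pitx3 at -1.56 lie near Th and Slc6a3, and of the breakdown and cofactor genes shown only Aldh1a1 is circled.

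Across the 35 mDA libraries the 4 genes varied together to unequal degrees. Pearson's r of log2(CPM + 1) was 0.909 between Th and Slc6a3, 0.766 between Th and Slc10a4, 0.685 between Slc6a3 and Slc10a4, and 0.500 to 0.542 between Drd2 and the others. These libraries share genotype, age and set differences, so r describes their joint spread. Of the 15425 genes, those most like Th were Slc18a2 (r = 0.917), Etv5 (0.876) and Clptm1l (0.875), and those most like Slc6a3 were Lix1 (0.897), Slc18a2 (0.890) and Lmo4 (0.853). These 5 genes fell at 8 months, by 0.85 (Etv5) to 1.49 (Slc18a2) on the log2 scale. They were picked over libraries that include the 8-month mutants, so their falls are not separate evidence. The genes most like Slc10a4 were Chrna6, a nicotinic receptor subunit (r = 0.907), Dlk1 (0.880) and Sdc2 (0.874), none of which was called at 8 months (-0.31, -0.37 and -0.32). At 4 months they were at -0.44 (adjusted p = 0.0570), -0.21 (adjusted p = 0.407) and -0.82 (adjusted p = 0.0353), so that Sdc2 fell at that age. Those most like Drd2 were Cadps2 (r = 0.738), Plaa (0.716) and Syt16 (0.714), of which Cadps2 fell by 0.83 at 8 months (adjusted p = 0.000700).

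In the order of the 8 group levels, Th and Slc6a3 each had 2 steps larger than the spread. For Th the order by mean log2(CPM + 1) was mDA wt at 4 months, mDA wt at 8 months, mDA mutant at 4 months, mDA mutant at 8 months, then the 5HT groups. Its steps were above the 8-month mDA mutants (exact permutation test, adjusted p = 0.00128 over 28 neighbours) and below them (adjusted p = 0.0226, from the smallest p that 8 against 4 can give by an exact test). Slc6a3 had its steps at the same places (exact permutation test, adjusted p = 0.00346 and 0.0226). Drd2 had 1 step, between the 8-month mDA mutants and the 5HT groups (exact permutation test, adjusted p = 0.0226), and Slc10a4 had none. Per kilobase of transcript, the 8-month mDA levels were 397 CPM in mutants and 926 CPM in wt for Th, 324 and 816 for Slc6a3, 188 and 292 for Slc10a4, and 20.8 and 30.9 for Drd2, mutants before wt. Counts of the 4 genes made up 0.233 ± 0.0337% of a library in mDA mutants and 0.518 ± 0.0829% in mDA wt at 8 months (SD, n = 8 each), and 0.485 ± 0.175% in 10 mutants and 0.518 ± 0.133% in 9 wt animals at 4 months.

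Between neuron types, 3 of the 4 genes were far higher in mDA neurons, and Slc10a4 was shared. In wt animals, mean of both ages, Th was 117-fold higher in mDA than in 5HT neurons (log2 fold change 6.87, SE 0.26, adjusted p = 2.99e-29) and was the first of 18386 genes by p-value. Slc6a3 was 189-fold higher (7.57, SE 0.44, adjusted p = 6.07e-19) and Drd2 69.5-fold higher (6.12, SE 0.37, adjusted p = 1.80e-20). Slc10a4 averaged 615 ± 163 CPM in mDA and 555 ± 81.8 CPM in 5HT wt neurons at 8 months, and its log2 fold change over both ages was 0.39 (95% interval 0.06 to 0.72, adjusted p = 0.0930). It passed under RLE scaling at 0.42 (adjusted p = 0.0448), in DESeq2 at 0.42 (adjusted p = 0.0323) and with scaling to pan-neuronal genes at 0.82 (adjusted p = 1.05e-06), where the median of all genes was itself at 0.46. In this comparison 10.9% of genes were higher in mDA neurons, 1999 against 1682 lower, and 4655 against 532 with pan-neuronal scaling. Mouse line and, at least in part, set differ with neuron type and cannot be told apart from it.

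The same contrast in 8-month mutants was smaller in size for the 3 genes. Th was 37.2-fold higher in mDA than in 5HT mutants (log2 fold change 5.22, adjusted p = 1.09e-17), Slc6a3 95.5-fold (6.58, adjusted p = 1.49e-11) and Drd2 27.1-fold (4.76, adjusted p = 2.78e-11), while Slc10a4 was at 0.10 (95% interval -0.36 to 0.56, adjusted p = 0.895). Of all genes 3.38% were higher in mDA neurons here, 621 of the 994 called, and 925 of 1086 called with pan-neuronal scaling. The wt values above pool the 2 ages, so these contrasts were not tested against them. At 8 months alone, a change of this contrast with genotype is the same quantity as the difference of genotype effects between neuron types. That test is given below, and no member passed it.

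In 5HT neurons Slc10a4 was the only member at a level like that of mDA neurons. At 8 months it had 313, 401, 386 and 366 CPM in the 4 mutants and 653, 498, 591 and 478 CPM in the 4 wt animals. These groups did not overlap, but the log2 fold change of -0.57 (SE 0.19, unadjusted p = 0.00672 in edgeR) had an adjusted p of 0.415, and 0.397% of the 15633 genes tested were called. At 4 months it had 417, 499, 380.8 and 520 CPM in mutants and 481, 279, 420 and 474 CPM in wt, with a log2 fold change of 0.15 (adjusted p = 0.966).

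Th, Slc6a3 and Drd2 were low in 5HT neurons. Th had 23.8, 17.7, 8.80 and 27.5 CPM in 8-month mutants and 14.0, 35.8, 17.1 and 16.1 CPM in wt, and at 4 months 6.596, 2.98, 4.01 and 6.26 CPM in mutants and 13.1, 14.3, 13.3 and 3.05 CPM in wt. The values overlapped at either age, and the log2 fold changes were -0.15 (95% interval -1.18 to 0.89, adjusted p = 0.9996) and -1.10 (-2.16 to -0.05, adjusted p = 0.787). Slc6a3 had 26.01, 5.73, 7.97 and 7.14 CPM in 8-month mutants and 27.9, 32.4, 15.8 and 7.35 CPM in wt (log2 fold change -0.32, adjusted p = 0.9996). At 4 months it had 2.14, 2.42, 14.4 and 15.7 CPM in mutants and 1.04, 15.95, 16.8 and 5.39 CPM in wt (-0.43, adjusted p = 0.982). Drd2 had 8, 19, 16 and 3 counts in 8-month mutants and 0, 7, 5 and 5 counts in wt, and 12, 24, 0 and 49 counts in 4-month mutants and 1, 0, 19 and 10 counts in wt. These sum to 46 counts over mutants and 17 over wt at 8 months, and to 85 and 30, mutants before wt, at 4 months. Its fitted log2 fold changes of 1.57 (95% interval -1.14 to 4.29) and 1.60 (-1.12 to 4.31) have intervals that span 0. At 4 months 0.0128% of the genes were called, and none of the members.

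The 8-month effect in mDA neurons was not shown to differ from that in 5HT neurons for any of the 4. The difference of log2 fold changes, mDA minus 5HT, was -1.05 for Th (95% interval -1.73 to -0.37, edgeR adjusted p = 0.360) and -0.69 for Slc6a3 (-1.89 to 0.51, adjusted p = 0.844). It was -0.03 for Slc10a4 (-0.55 to 0.49, adjusted p = 0.994) and -1.956 for Drd2 (-3.29 to -0.63, adjusted p = 0.406). The intervals of Th and Drd2 leave out 0 but are not adjusted over genes. Of 18386 genes 0.179% passed this test. Th, Slc6a3 and Drd2 had few counts in the 5HT libraries, which limits these intervals. Between ages in 5HT neurons no member passed either: Th was at 1.92, 8 over 4 months, in mutants (adjusted p = 0.189, or 0.0332 in DESeq2) and at 0.97 in wt (adjusted p = 0.840), and Slc10a4 at -0.34 in mutants (adjusted p = 0.621) and 0.38 in wt (adjusted p = 0.821). Of the genes 0.243% were called between ages in mutants, and 0% (0 genes) in wt, where edgeR gave 964 genes an unadjusted p under 0.05 and DESeq2 called 15.

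Of the 13 further synthesis, storage and breakdown genes, 3 fell in 8-month 5HT mutants, where 0.147% of all genes tested fell: Slc18a2 by 1.37 (adjusted p = 0.00294), Ddc by 1.08 (adjusted p = 0.00533) and Gchfr, a regulator of Gch1, by 2.00 (adjusted p = 0.00397) on the log2 scale. Of these 3, Slc18a2 also fell in mDA mutants, Ddc was not called there and Gchfr was not tested there, and Aldh1a1 was at -0.04 in 5HT mutants (adjusted p = 0.9996). Serotonergic markers fell in the same libraries in 3 of 5 cases, Tph2, Slc6a4 and Htr1a. Of the 3 GABA neuron markers Slc32a1 rose by 2.15 (adjusted p = 0.0128), where 0.249% of all genes rose, and Gad1 and Gad2 were at 1.24 and 0.64 (adjusted p = 0.219 and 0.738). Summed GABA markers were at 389.1 to 484.4 CPM in 8-month 5HT mutants and 171.2 to 220.7 CPM in wt, with no overlap. The part of these markers in the values of the 4 genes in 5HT neurons was not tested. Th and Slc6a3 reached at most 35.8 and 32.4 CPM in any 5HT library.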

How the data were processed

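RNA was measured by Smart-seq2 in FACS-sorted neurons of 51 mice, per the labels' protocols, and the authors deposited raw read counts per gene, 1 column per library, for 24564 genes. The submitters' processing notes name STAR 2.7.0a and mm10 (GRCm38), and no source used here names the counter or says whether strand was used. No column was left unused (0), 0 pairs of columns were identical, and replicates of a group differed beyond sampling noise (chi-square per degree of freedom 6.97 or more). A reporter row, at most 0.00294% of a library, stayed out of tests. Sex genes matched the labels in 51 of 51 libraries. Counting intervals and floors cover counting error only, since these reads carry no molecular tags.

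The test was edgeR 4.0.16 (R 4.3.3), by quasi-likelihood with robust dispersions, after TMM scaling and filterByExpr (minimum count 10, by group). A gene was called at a Benjamini-Hochberg adjusted p under 0.05 over all genes tested. The 35 mDA libraries were fitted together with set within age and sex as terms (for the age comparisons, with set shared over ages), the 16 5HT libraries with sex, and the neuron types in all 51 with sex and no set term, except that the difference of genotype effects kept set within age. SE is the absolute log2 fold change over the square root of F and is approximate; intervals are 1.96 SE. Levels are CPM on TMM library sizes, and log2 levels add a pseudocount of 1. Ratios and neighbouring groups were tested by exact permutation, 2-sided, with no term for set or sex. Fits were tested on simulated data. Alternatives were DESeq2 1.42.0, RLE and pan-neuronal scaling, no filter, no sex or set term, single sets, 2 groups only, each library left out, and 1 setting added after the data were seen. Replicates are separate animals by their labels.

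The members, gene lists and tests were chosen with earlier results of these data known. Named genes are the 4 members, up to 5 called genes per list and comparison by p-value (uncalled ones with their values), Eed, and the 3 genes with the highest Pearson r to each member, where unnamed gene models and the sex genes were not eligible. Promoters came from RefSeq for GRCm38.p6 and matched 4 of 4 members. Some results of the gene lists are not reported here.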

Additional observations from a re-analysis of the deposited data

Results flagged for a closer look

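Of 32 combinations of gene and group, 5 held a library far from the rest of its group. For independent, normally distributed values the rule used gives about 1 in 20 by chance. The combinations share libraries, so the 5 were not tested against that rate. Th was at 929.7 CPM in the mDA wt library C250 at 8 months, while the other 7 were at 1657 to 2180 CPM. Drd2 was at 69.3 CPM in the mDA mutant D161 at 8 months and at 46.8 to 56.1 CPM in the other mutants. In 5HT neurons, Th was at 3.05 CPM in the wt library S374 at 4 months (others 13.1 to 14.3 CPM) and at 35.8 CPM in the wt library S382 at 8 months (others 14.0 to 17.1 CPM). Slc6a3 was at 26.01 CPM in the 5HT mutant S442 at 8 months, against 5.73 to 7.97 CPM in the other mutants. The genotype effect in mDA neurons differed between 8 and 4 months for Th by -1.10 and for Slc6a3 by -1.56 on the log2 scale, with the tests given above.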

How the results depend on the processing

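Under every setting run, Th and Slc6a3 were lower in 8-month mDA mutants and past the threshold, from -1.34 to -1.11 for Th and from -1.53 to -1.28 for Slc6a3. Slc10a4 missed it at 8 months without a set term (-0.60) and without the 4 libraries that stood apart (-0.50). Drd2 missed it within set1 (-0.54), within set2 (-0.82) and without those 4 libraries (-0.55), and ran from -0.64 to -0.55 when single libraries were left out. At 4 months Slc10a4 passed within set1 (-0.70) and ran from -0.47 to -0.35 over single libraries, and Drd2 turned to 0.015 within set3. Between neuron types in wt, Slc10a4 passed with RLE scaling (0.42), DESeq2 (0.42) and pan-neuronal scaling (0.82). Pan-neuronal scaling moved the median of all genes to 0.46 there, to -0.10 for mDA mutant over wt at 8 months and to -0.18 for mDA mutants over age, where Slc10a4 passed at -0.55. Th passed over age in 5HT mutants with DESeq2 (1.91).

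Uncalled values turned sign when single libraries were left out: Slc6a3 (-0.78 to 0.37, turned by S369) in 5HT mutants at 4 months; Th (-0.52 to 0.25, S382 or S446) and Slc6a3 (-1.28 to 0.17, S369, S446 or S447) at 8 months; Slc6a3 (-0.97 to 0.033, S442) and Slc10a4 (-0.12 to 0.11, any of 5 5HT libraries, or 0.072 without a set term) between the effects in mDA and 5HT; Slc10a4 (-0.0066 to 0.17, S442) between neuron types in mutants; Drd2 (-1.21 to 0.10, S373) over age in 5HT wt and Slc6a3 (-0.14 to 1.33, S442) in 5HT mutants. Within sets no ratio passed, and none could at either age, given the group sizes and the adjustment over 12 ratios. At 8 months Th to Slc10a4, Th to Drd2, Slc6a3 to Slc10a4 and Slc6a3 to Drd2 were -0.78, -0.88, -0.89 and -0.99 in set1 and -0.17, -0.24, -0.37 and -0.44 in set2. At 4 months Th and Slc6a3 to Slc10a4 were 0.45 and 1.04 in set1 and 0.29 and 0.40 in set2. Causes were not tested.

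Counts of called genes moved more. At 8 months mDA had 666, but 1060 with DESeq2, 393 without a sex term, 229 higher and 154 lower with 2 groups only and 109 in set2. At 4 months it had 181, but 352 with DESeq2, 115 with pan-neuronal scaling, 57 without a set term, and 1502, 8 and 69 in set1, set2 and set3. The difference between ages had 580 higher and 362 lower, but 615 in all without a set term, 154 without a sex term and 1651 without the 4 libraries. In 5HT, 62 at 8 months became 39 (pan-neuronal), 124 higher and 52 lower (DESeq2) and 199 (2 groups only), and 2 at 4 months became 12 (no filter), 48 (DESeq2) and 0 in edgeR with 2 groups only, where 376 genes had an unadjusted p under 0.05. Between the effects in mDA and 5HT 33 became 15 (pan-neuronal) and 33 higher and 68 lower (DESeq2). Between ages, 1137 in mDA mutants became 703 without a set term and 38 in 5HT mutants became 216 (DESeq2). With single libraries left out the count in mDA at 4 months ran from 78 to 485. No paired analysis was possible because animals carry their own numbers and none links a mutant to a wt animal.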
